A study of Bos taurus with 18 samples.

Results

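Splicing factors and heterogeneous nuclear ribonucleoproteins (hnRNPs) were examined in RNA of bovine blastocysts on 18 Affymetrix bovine arrays. The members were the genes whose symbol in GEO's platform annotation starts with HNRNP, HNRP, SRSF, SFRS, SNRP, SF3, U2AF, PRPF, LSM or CELF, taken from probe sets with a single listed gene. They comprised 70 of 9155 genes so annotated, with 104 of the 24016 tested probe sets, and each gene was represented by its brightest probe set. No filter on dim signals was applied, so that all 70 members were tested. A further 2 probe sets list SNRPF together with another gene and were not used.

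The embryos were mixed-breed Bos taurus blastocysts produced in vitro with sex-sorted semen of 3 bulls and collected on day 7 after insemination. RNA on an array came from 60 pooled blastocysts that shared sex and sire, and female and male embryos of each of bulls 3, 2 and 1 had 3 arrays each. There were thus 9 arrays of females against 9 of males, and 6 arrays per bull. Each bull is a single sire, whole blastocysts were used, and separate fertilisation runs for the pools of a group are not mentioned in the labels, so that a p-value here reflects the variation among the pools and nothing beyond it. All values below are on the log2 scale, on which a difference of 1 is a doubling, and a level on a probe set cannot be set against that of another.

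Splicing removes introns from nuclear pre-mRNA in the spliceosome, a machine built from small nuclear ribonucleoproteins (snRNPs) and many accessory proteins. Sm proteins form a ring on most spliceosomal small nuclear RNAs, a related LSm ring binds U6, the SF3 complexes belong to the U2 snRNP, U2AF recognises the end of the intron, and the PRPF proteins work mainly in the tri-snRNP and the catalytic spliceosome. SR proteins mostly promote, and hnRNPs often oppose, the use of exons to which they bind, and CELF proteins regulate alternative splicing and mRNA decay. In the early embryo these factors process the transcripts of the newly activated genome.

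As a check on the sex labels, XIST had log2 values of 8.87 to 9.57 in females and 5.93 to 7.28 in males. Among 14 arrays the relative spread, the interquartile range of each array's deviations from the probe set medians, was 0.168 to 0.198, and 4 arrays stood apart at 0.267 to 0.349. These were female bull 1 replicate 3, male bull 1 replicate 2, male bull 2 replicate 1 and male bull 3 replicate 3. A 5′ minus 3′ index, the signal at the 5′ end minus that at the 3′ end of 3 control transcripts, was -0.79 to 0.05 log2 in females and -1.27 to 0.45 in males. Mean log2 levels of 7 trophectoderm markers were 8.64 to 9.27 in females and 8.49 to 9.24 in males, and those of 15 cumulus and granulosa markers were 5.72 to 6.32 and 5.54 to 6.20. The trophectoderm list had 2 genes called towards females and 2 towards males, and the cumulus and granulosa list had 4 and 1. Inner cell mass markers lay at 8.83 to 9.09 in females and 8.59 to 8.89 in males, with 2 of 4 higher in females and 0 in males, and blood markers lay at 4.68 to 5.23 and 4.69 to 5.09, with 2 of 5 higher in females and 1 in males. Sperm markers lay at 6.32 to 6.73 in females and 5.99 to 6.398 in males, with PRM1 (1.73 log2) and TNP1 (0.88 log2) higher and SPA17 and ODF2 (-0.28 and -0.25 log2) lower in females, of 5 genes. Of 7 oocyte markers (4.73 to 5.46 in females and 4.74 to 5.16 in males) OOEP was higher in females by 0.36 log2. Of 6 primitive endoderm markers (8.23 to 8.47 and 8.10 to 8.34) RBP4 differed by 0.92 log2 and GATA4 by -0.22 log2. Their part in the results below was not tested, and in pooled RNA fewer cells of a type and less RNA per cell cannot be told apart.

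Female and male blastocysts differed in 15 of the 70 members, and the differences were small apart from that of the X-linked HNRNPH2. In females 9 members were higher, HNRNPH2, CELF4, PRPF3, CELF1, LSM6, PRPF18, SF3A2, SNRPB2 and SNRPC, and 6 were lower, PRPF38B, LSM12, HNRNPU, HNRNPLL, LSM4 and HNRNPH1. Their absolute differences ranged from 0.15 to 0.78 log2 (1.11 to 1.72-fold) with a median of 0.24 log2, and 1 of them, HNRNPH2, exceeded 1.5-fold. The called share of members was 21.4%, against 20.8% of all genes and 15.6% of all probe sets, so that it lay near the background. Of all genes 11.5% were called higher and 9.31% lower in females. On the autosomes 14 of 69 members differed (20.3%), against 19.1% of autosomal genes, of which 9.45% were higher and 9.62% lower in females, and the 14 members split into 8 higher and 6 lower. The median member differed by 0.01 log2, and the median gene by -0.01 log2. Calls rest on limma's test at a Benjamini-Hochberg adjusted p under 0.05 over all 24016 probe sets. The count was 9 without female bull 2 replicate 2, 7 without bull 2, 5 without bull 3 and 9 with each bull's mean as the replicate. Without bull 1, and likewise without the arrays of wide spread, HNRNPU, HNRNPH1, SNRPC and PRPF18 lost their calls.

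**Figure D1:**
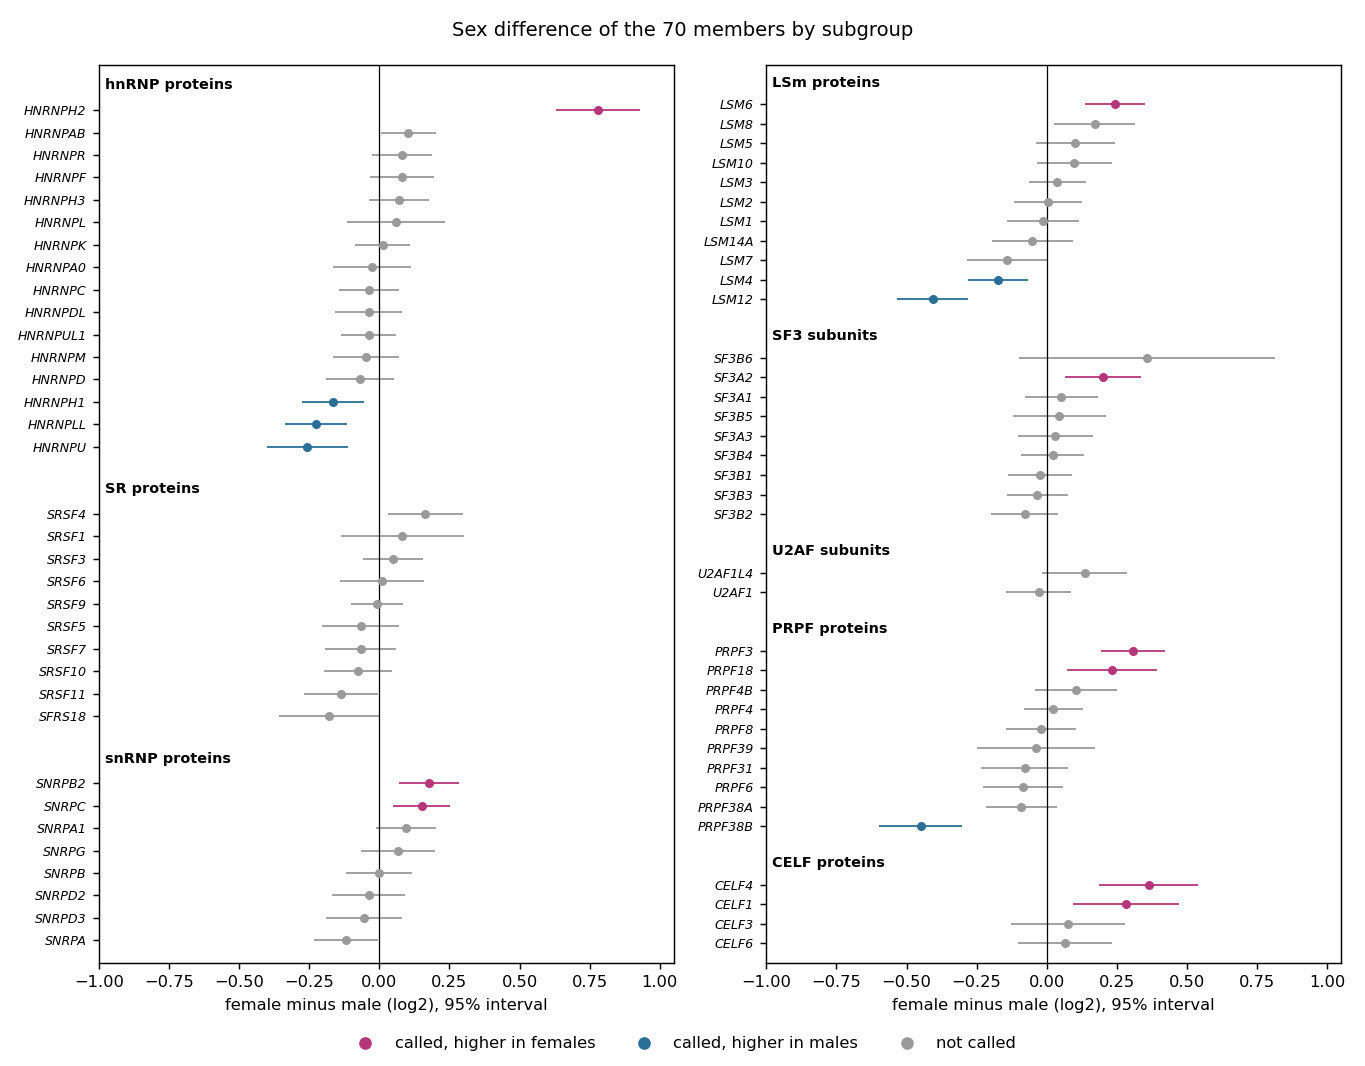
Female minus male difference (log2, points) with its 95% interval from limma (lines) for the 70 members, grouped by family. Pink points are called higher in females, blue ones higher in males, and grey ones are not called. HNRNPH2, at 0.78 log2, stands apart, and most other points lie within 0.25 log2 of 0.

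Of the hnRNP genes, 1 of 16 rose and 3 fell in females (25% called, against 20.8% of all genes). HNRNPH2 encodes a protein that binds runs of guanines in RNA and is the only member on the X chromosome. Its lowest, median and highest values were 8.88, 9.09 and 9.24 in females, against 8.01, 8.23 and 8.78 in males. No female array overlapped a male one, a separation that 1 of 70 members showed, against 4.51% of all genes. The highest male value belonged to replicate 2 of bull 1, whose array was among those of wide spread. The difference was 0.78 ± 0.07 log2 (SE, 1.72-fold, limma adjusted p = 3.82e-07). Of all X-linked genes 70% were called higher in females, and the direction of HNRNPH2 is that of most of its chromosome.

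The closest relatives of HNRNPH2 are autosomal and did not share its difference. HNRNPH1, which binds the same kind of guanine run, was lower in females. Its lowest, median and highest values were 11.26, 11.42 and 11.51 in females, against 11.45, 11.56 and 11.70 in males (-0.17 ± 0.05 log2, SE, limma adjusted p = 0.037), and 7 of 9 male arrays lay above the highest female one. HNRNPH3 differed by 0.07 log2 (95% interval -0.04 to 0.17) and HNRNPF by 0.08 log2 (-0.04 to 0.19), and neither passed the test. Probes of such similar genes can bind each other's transcripts, which was not tested. HNRNPH1 lost its call in 12 of 18 fits without 1 array (adjusted p = 0.0509 to 0.0836) and without the arrays of wide spread. Its call was also lost without bull 1, bull 2 or bull 3, with array weights, with bull as the replicate and with pools paired by bull and sample number.

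HNRNPU, a nuclear matrix protein that in mouse cells anchors Xist RNA to the chromosome, was also lower in females. Its values were 10.54, 10.85 and 10.95 (lowest, median and highest) in females, against 10.91, 10.99 and 11.38 in males. Of the male arrays 6 lay above every female one, and 8 female arrays lay below every male one. The difference was -0.26 ± 0.07 log2 (SE, limma adjusted p = 0.0142), with -0.39, -0.05 and -0.33 log2 in bulls 1, 2 and 3. HNRNPLL, known for regulating the splicing of the leukocyte receptor CD45, had values of 8.98, 9.15 and 9.23 in females and 9.21, 9.34 and 9.52 in males. It fell by 0.23 log2 (SE 0.05, limma adjusted p = 0.00603) in females, and its dimmer second probe set fell by 0.27 log2, while its dimmest one did not pass (0.08 log2). HNRNPLL lost its call without bull 3 and with its probe sets averaged (limma adjusted p up to 0.158). HNRNPU lost its call without the arrays of wide spread, without bull 1 or bull 3, and with bull as the replicate. The other 12 hnRNP genes, among them HNRNPA0, HNRNPC, HNRNPD, HNRNPK, HNRNPL and HNRNPM, differed by -0.07 log2 (HNRNPD) to 0.10 log2 (HNRNPAB), and their 95% intervals lay between -0.19 and 0.23 log2.

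None of the 10 SR protein genes was called for sex (0%, against 20.8% of all genes). SRSF4 had the highest difference at 0.16 log2 (95% interval 0.03 to 0.30, limma adjusted p = 0.0977), and SFRS18 the lowest at -0.18 log2 (adjusted p = 0.189). SFRS18 was placed in this family by the start of its symbol alone. SRSF1, SRSF3, SRSF5, SRSF6, SRSF7, SRSF9, SRSF10 and SRSF11 lay between them. The intervals of the 10 genes ran from -0.36 log2 for SFRS18 to 0.30 log2 for SRSF1 at their outer ends. At an unadjusted p under 0.05 were SRSF4 and SRSF11 (-0.14 log2, 95% interval -0.27 to -0.01).

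Of the 8 SNRP genes, 2 rose in females (25% called, against 20.8% of all genes). SNRPB2 is a protein of the U2 snRNP. Its lowest, median and highest values were 10.35, 10.47 and 10.57 in females, against 10.17, 10.29 and 10.40 in males (0.18 ± 0.05 log2, SE, limma adjusted p = 0.021). SNRPC, a protein of the U1 snRNP that helps it hold the start of the intron, had 11.30, 11.38 and 11.52 in females, against 11.15, 11.25 and 11.34 in males (0.15 ± 0.05 log2, SE, limma adjusted p = 0.041). For SNRPB2 8 female arrays, and for SNRPC 6, exceeded every male array. The call of SNRPC was lost in 13 of 18 fits without 1 array, and both were lost with female and male pools paired by bull and sample number. Both were also lost without bull 2, without bull 3 and with bull as the replicate. The largest limma adjusted p over the alternative fits was 0.259 for SNRPB2 and 0.400 for SNRPC. SNRPC further lost its call without bull 1, without the arrays of wide spread and with the sample number as a block.

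The other 6 SNRP genes did not pass, both those of the shared Sm ring and those of a single snRNP. SNRPB, of the ring itself, had a mean of 11.89 ± 0.10 in females and of 11.89 ± 0.10 in males (SD, 9 arrays per sex). Its difference was -0.002 log2 with a 95% interval of -0.12 to 0.12. SNRPD2, SNRPD3 and SNRPG, and the U1 and U2 proteins SNRPA and SNRPA1, differed by -0.12 to 0.10 log2. SNRPA, at -0.12 log2, was at an unadjusted p under 0.05 in limma's test.

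Of the 11 LSM genes 1 rose and 2 fell in females (27.3% called, against 20.8% of all genes). LSM12, an LSm-domain protein outside the U6 ring, had values of 7.47, 7.69 and 7.90 (lowest, median and highest) in females, against 7.83, 8.13 and 8.34 in males. All but 1 of the male arrays lay above the highest female array. The difference was -0.41 ± 0.06 log2 (SE, 1.33-fold, limma adjusted p = 9.72e-05).

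LSM4 and LSM6 are subunits of the LSm ring and moved in opposite directions. LSM4 had 9.99, 10.12 and 10.20 in females, against 10.15, 10.31 and 10.42 in males (-0.17 ± 0.05 log2, SE, limma adjusted p = 0.0257). LSM6 had 9.58, 9.66 and 9.87 in females, against 9.30, 9.44 and 9.72 in males (0.24 ± 0.05 log2, SE, limma adjusted p = 0.00243). The groups overlapped for both genes. LSM4 lost its call in 5 of 18 fits without 1 array (female bull 2 replicate 1 or 2, female bull 3 replicate 2, male bull 1 replicate 1 or male bull 2 replicate 3), without bull 2 or bull 3, with bull as the replicate, and with pools paired by bull and sample number (limma adjusted p = 0.0502 to 0.305). LSM2, LSM3, LSM5, LSM7 and LSM8, which complete the nuclear ring, did not pass, with differences from -0.14 log2 (LSM7) to 0.17 log2 (LSM8, 95% interval 0.03 to 0.32). LSM1, the subunit that marks the cytoplasmic ring of mRNA decay, LSM10 of the U7 particle that processes histone mRNA, and LSM14A of cytoplasmic mRNA granules differed by -0.01, 0.10 and -0.05 log2.

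Of the 9 SF3 genes, SF3A2 was called (11.1%, against 20.8% of all genes). SF3A2 is a subunit of the complex with which the U2 snRNP binds the branch point. Its values were 10.36, 10.48 and 10.65 in females, against 10.10, 10.31 and 10.61 in males (0.20 ± 0.06 log2, SE, limma adjusted p = 0.0398). Only 2 female arrays exceeded every male array. Its probe set carries the suffix that Affymetrix gives to probes matching more than 1 transcript, which makes the gene uncertain, and the call was lost in 13 of 18 fits without 1 array.

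SF3B1, the largest SF3B subunit, differed by -0.02 log2 and SF3A1, SF3A3, SF3B2, SF3B3, SF3B4 and SF3B5 by -0.08 to 0.05 log2. SF3B6, the branch point protein p14, had the widest spread of all members. Its lowest, median and highest values were 10.81, 10.89 and 11.05 in females, against 8.61, 10.75 and 11.003 in males, and the low male value belonged to replicate 2 of bull 1. The sex difference of SF3B6 was 0.36 ± 0.22 log2 (SE, limma adjusted p = 0.327), and 0.10 ± 0.06 log2 without that array. U2AF1, which reads the last bases of the intron, differed by -0.03 log2 and its paralog U2AF1L4 by 0.14 log2, and neither passed.

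Of the 10 PRPF genes 2 rose and 1 fell in females (30% called, against 20.8% of all genes). PRPF3, a protein of the U4/U6 snRNP whose human gene is mutated in retinitis pigmentosa, had lowest, median and highest values of 8.90, 9.0 and 9.16 in females, against 8.54, 8.67 and 8.90 in males. All but 1 of the female arrays exceeded every male array. The difference was 0.31 ± 0.05 log2 (SE, 1.24-fold, limma adjusted p = 0.00052).

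PRPF38B, a relative of the spliceosome activation factor PRPF38A, showed the largest difference towards males among the members. It had 8.28, 8.55 and 8.68 in females, against 8.67, 9.04 and 9.19 in males. Only 1 male array fell within the range of the females. The difference was -0.45 ± 0.07 log2 (SE, 1.37-fold, limma adjusted p = 0.000189), and the second probe set of PRPF38B was also lower in females (-0.31 log2, adjusted p = 0.0113).

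PRPF18, a factor of the second catalytic step, was higher in females, at 6.35, 6.58 and 6.72 in females, against 5.95, 6.44 and 6.56 in males (0.23 ± 0.08 log2, SE, limma adjusted p = 0.0447). That call was lost in 13 of 18 fits without 1 array and without the arrays of wide spread. It was also lost without bull 1, bull 2 or bull 3, without moderation of the variance and with the probe sets averaged. PRPF8, the protein at the heart of the spliceosome, differed by -0.02 log2. PRPF4, PRPF4B, PRPF6, PRPF31, PRPF38A and PRPF39 differed by -0.09 to 0.11 log2 and did not pass.

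Of the 4 CELF genes, CELF1 and CELF4 rose in females (50% called, against 20.8% of all genes). CELF4, known mainly from neurons, had a dim signal of 5.66, 5.88 and 6.43 (lowest, median and highest) in females, against 5.29, 5.53 and 5.97 in males (0.36 ± 0.08 log2, SE, 1.29-fold, limma adjusted p = 0.00535). CELF1, which binds GU-rich elements and promotes decay of their mRNAs, had 7.70, 7.95 and 8.14 in females, against 6.95, 7.71 and 7.89 in males (0.28 ± 0.09 log2, SE, limma adjusted p = 0.0382). The lowest male value of CELF1 again belonged to replicate 2 of bull 1. CELF1 lost its call in 11 of 18 fits without 1 array (adjusted p = 0.0522 to 0.0841), though not without that array. Its call was also lost without bull 2 or bull 3, without moderation of the variance and with quantile normalization repeated. The same held with the probe sets averaged and with pools paired by bull and sample number. CELF3 and CELF6 differed by 0.08 and 0.07 log2 and did not pass.

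Of the 15 called members, 4 kept their call in all 33 alternative fits, namely HNRNPH2, PRPF3, LSM12 and PRPF38B. LSM6 and CELF4 each lost it in 1 fit, LSM6 without bull 3 (adjusted p = 0.051) and CELF4 without bull 2 (adjusted p = 0.0508). With the 5′ minus 3′ signal as a covariate the same 15 members were called.

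**Figure D2:**
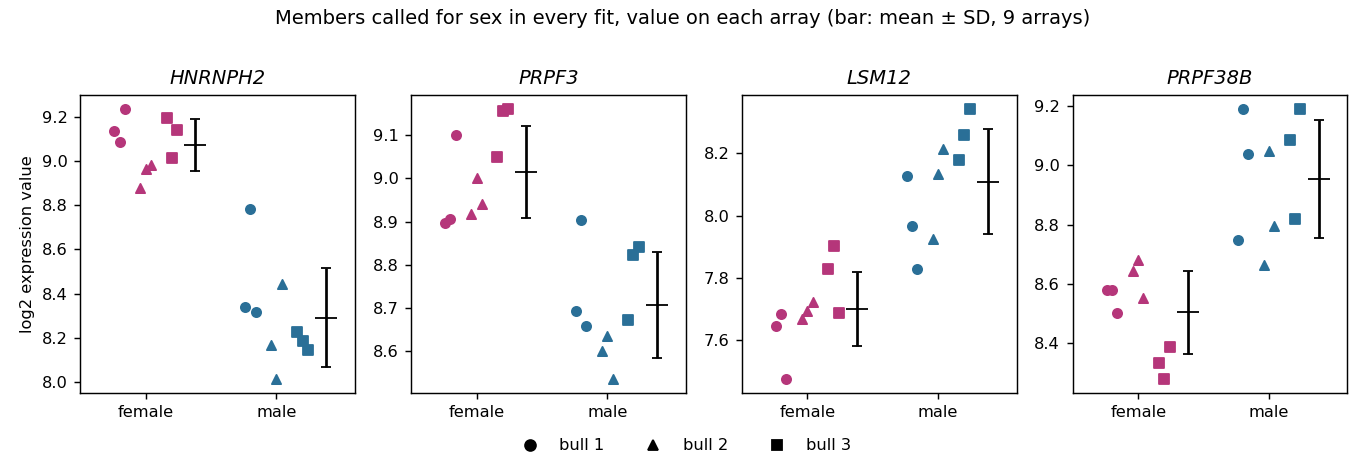
Log2 expression value on each array for HNRNPH2, PRPF3, LSM12 and PRPF38B, with female arrays left of male ones, a marker shape per bull, and bars for the mean ± SD of 9 arrays. The sexes do not overlap for HNRNPH2, and for the other genes 1 male array lies in the range of the females.

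Within single bulls few members passed, with 3 arrays against 3. In bull 1 HNRNPH2 was called, higher in females (1 of 70 members, 1.43%, against 6.03% of all genes, of which 4.25% higher and 1.78% lower). In bull 2 HNRNPH2 and PRPF3 were higher and LSM12 lower in females (3 of 70, 4.29%, against 4.59% of all genes, of which 3.71% higher and 0.874% lower). In bull 3 the same genes were called with PRPF38B (4 of 70, 5.71%, against 5.92% of all genes, of which 4.29% higher and 1.63% lower). Per bull 1, 2 and 3, the female minus male difference of HNRNPH2 was 0.67, 0.73 and 0.93 log2, that of PRPF3 was 0.22, 0.36 and 0.34 log2, and that of LSM12 was -0.37, -0.40 and -0.45 log2. In bull 1 LSM12 and PRPF38B stood just outside the threshold (limma adjusted p = 0.0507 and 0.0501). Without 1 array the calls numbered 1 to 3 in bull 1, 1 to 3 in bull 2 and 2 to 5 in bull 3, with 2 in bull 3 when replicate 3 of either sex of bull 3 was absent.

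All 15 called members had the same direction in each bull, as the mean over bulls favours. Over all 70 members 41 had the same sign in the 3 bulls (58.6%), against 55.3% of all genes. The interaction of sex and bull was called for 0 of 70 members in limma's test (2 at an unadjusted p under 0.05, and 0 without moderation of the variance). The background was 0% of 24016 probe sets, and 194 of 9155 genes at an unadjusted p under 0.05. The 2 members at that unadjusted p were PRPF38A and PRPF38B. PRPF38A, a dim probe set, was at -0.33, 0.11 and -0.05 log2 (bull 1, bull 2 and bull 3). PRPF38B was at -0.44, -0.21 and -0.70 log2. SNRPG came next, with -0.01, -0.05 and 0.26 log2.

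**Figure D3:**
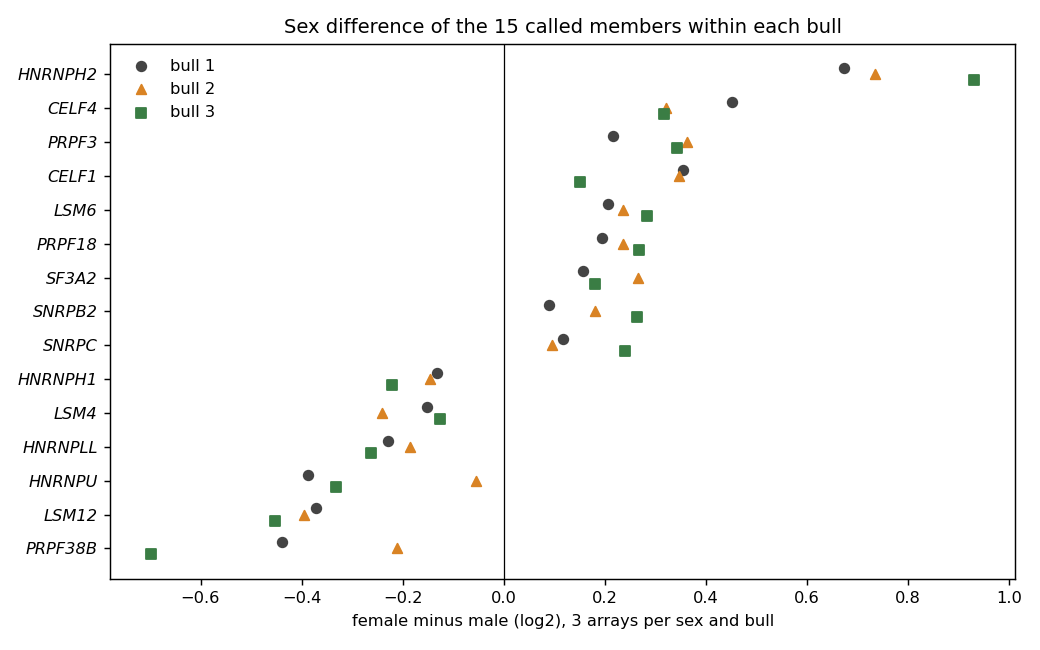
Female minus male difference (log2) of the 15 called members in each bull, with 3 arrays per sex and bull and a marker per bull. Each gene's 3 points lie on the same side of 0, and PRPF38B has the widest range, from -0.70 to -0.21 log2.

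The bulls differed in few members. Between bulls 2 and 1 none of the 70 members passed in limma's test (1 without moderation of the variance), against 2.04% of all genes. At an unadjusted p under 0.05 were 12 of the 70 members, against 1810 of 9155 genes. Between bulls 3 and 1 there were 3 calls (4.29%, against 3.6%), with SRSF6 and PRPF31 higher and SRSF1 lower in bull 3. Between bulls 3 and 2 there were 2 calls (2.86%, against 3.33%), with SRSF5 higher and SRSF1 lower in bull 3. Both comparisons share the arrays of bull 3, and a difference between bulls cannot be told apart from an unlabelled production or scan batch.

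SRSF1, the founding SR protein, had lowest, median and highest values of 7.58, 7.81 and 8.43 in bull 3, 8.19, 8.40 and 8.57 in bull 2 and 8.04, 8.50 and 8.63 in bull 1. All but 1 of the bull 3 arrays lay below every array of the other bulls. The difference was -0.56 ± 0.13 log2 against bull 1 (SE, limma adjusted p = 0.0222) and -0.52 ± 0.13 log2 against bull 2 (adjusted p = 0.0271). Against bull 1 it was -0.71 log2 in females and -0.41 log2 in males.

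SRSF5, an SR protein related to SRSF6, had 9.72, 9.81 and 9.93 in bull 3 and 9.33, 9.46 and 9.58 in bull 2 (0.36 ± 0.08 log2, SE, limma adjusted p = 0.0175), without overlap. SRSF6 had 8.52, 8.69 and 9.12 in bull 3 and 8.23, 8.36 and 8.47 in bull 1 (0.37 ± 0.09 log2, SE, limma adjusted p = 0.0279), also without overlap. PRPF31, a U4/U6 snRNP protein, had 9.30, 9.39 and 9.77 in bull 3 and 8.90, 9.06 and 9.35 in bull 1 (0.35 ± 0.09 log2, SE, limma adjusted p = 0.0371), where the bulls overlapped. How many of all genes separate in this way between bulls was not counted. Each of these differences had the same sign in females and in males.

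The mean 5′ minus 3′ signal of the 3 control transcripts also differed between bulls, at -0.69 log2 in bull 3, -0.25 in bull 2 and -0.10 in bull 1. On single arrays the signal ran from -1.27 log2 (male bull 3 replicate 3) to 0.45 log2 (male bull 1 replicate 2), both arrays of wide spread. With that signal as a covariate 0 of the 70 members were called between bulls 3 and 1 and 0 between bulls 3 and 2, against 0.05% and 0.595% of all probe sets. SRSF5 and PRPF31 lost the call with little change in size, at 0.38 log2 between bulls 3 and 2 and 0.32 log2 between bulls 3 and 1 (limma adjusted p = 0.122 and 0.815). SRSF6 was then at 0.11 log2 between bulls 3 and 1, and SRSF1 at -0.24 log2 against bull 1 and -0.29 log2 against bull 2. Without the arrays of wide spread 1 member was called in each comparison. Between bulls 3 and 1 none was called without male bull 3 replicate 3, without female bull 3 replicate 1 or without female bull 1 replicate 3. Between bulls 3 and 2 none was called without replicate 1 of either sex of bull 2.

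**Figure D4:**
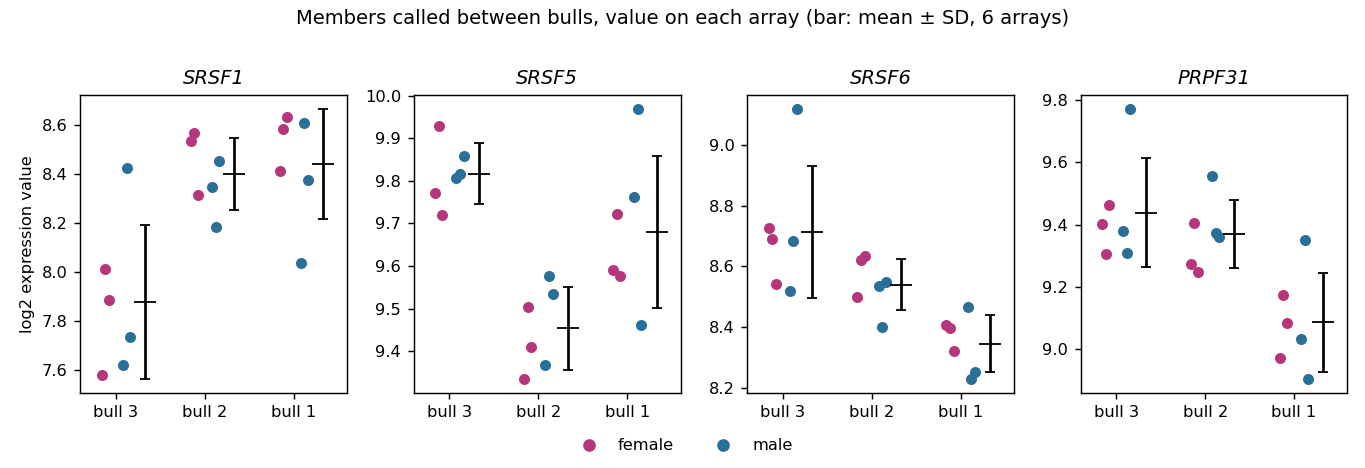
Log2 expression value on each array of SRSF1, SRSF5, SRSF6 and PRPF31 in bulls 3, 2 and 1, with female arrays in pink, male arrays in blue and bars for the mean ± SD of 6 arrays. SRSF1 is lowest in bull 3 on all but 1 array, and SRSF5 is higher in bull 3 than in bull 2.

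Several probe sets exist for 25 of the 70 members, 59 in all, and for some genes they disagreed. For sex, CELF1, HNRNPDL, HNRNPLL and PRPF18 had a called probe set and another that differed from it in sign or by over 0.3 log2. The second probe sets of CELF1 and PRPF18 gave -0.01 and -0.05 log2, against 0.28 and 0.23 log2 in the brightest. HNRNPDL, a regulator of mRNA stability and splicing, did not pass on its brightest probe set (-0.04 log2) and was higher in females on the dimmer one (0.20 log2, limma adjusted p = 0.028).

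For bulls, 6 genes had probe sets on different sides of the threshold, HNRNPA0, HNRNPL, PRPF31, SF3B1, SFRS18 and SRSF1, and these were singled out after their values were seen. The dimmest of 3 probe sets of HNRNPA0, an hnRNP of the A/B family, stood at 6.38 ± 0.43 in bull 3, 7.74 ± 0.24 in bull 2 and 7.22 ± 0.49 in bull 1 (SD, n = 6). It was lower in bull 3 than in bull 2 by 1.36 log2, while the brighter probe sets differed by 0.10 and 0.15 log2 and did not pass. A dim probe set of HNRNPL, which binds CA repeats, differed by -1.01 log2 between bulls 3 and 2, against -0.22 log2 on the brightest. SF3B1 had 4 probe sets, with -0.57, -0.53, 0.25 and 0.02 log2 between bulls 3 and 1, of which the first passed. The brightest and the dimmest probe sets of SRSF1 were lower in bull 3 than in bull 1 (-0.56 and -0.46 log2), and the remaining one differed by 0.05 log2. The dimmer probe set of SFRS18 was lower in bull 3 than in bull 1 by 0.64 log2, against -0.29 log2 on the brightest, which did not pass. PRPF31, called higher in bull 3 than in bull 1 on the brightest probe set, was at -0.08 log2 on the other, which was lower in bull 3 than in bull 2 (-0.50 log2).

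Of the 34 dimmer probe sets 6 were called between bulls, all lower in bull 3. Of all 24016 probe sets 848 were called between bulls 3 and 1, of which 564 were lower in bull 3. Between bulls 3 and 2 there were 897 called, of which 491 were lower in bull 3. With the 5′ minus 3′ signal as a covariate the HNRNPA0 and HNRNPL probe sets differed between bulls 3 and 2 by -1.07 and -0.66 log2 and did not pass (limma adjusted p = 0.0762 and 0.0849), and without the arrays of wide spread they passed, at -1.13 and -0.78 log2. The other 4 lost their call under both alternatives. With the covariate, the probe set of PRPF31 was at -0.27 log2 between bulls 3 and 2, and between bulls 3 and 1 those of SF3B1, SFRS18 and SRSF1 were at -0.12, 0.01 and -0.24 log2. Without the arrays of wide spread these values were -0.37 log2 for PRPF31 and -0.36, -0.33 and -0.36 log2 for SF3B1, SFRS18 and SRSF1 (limma adjusted p = 0.0571 to 0.274).

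**Figure D5:**
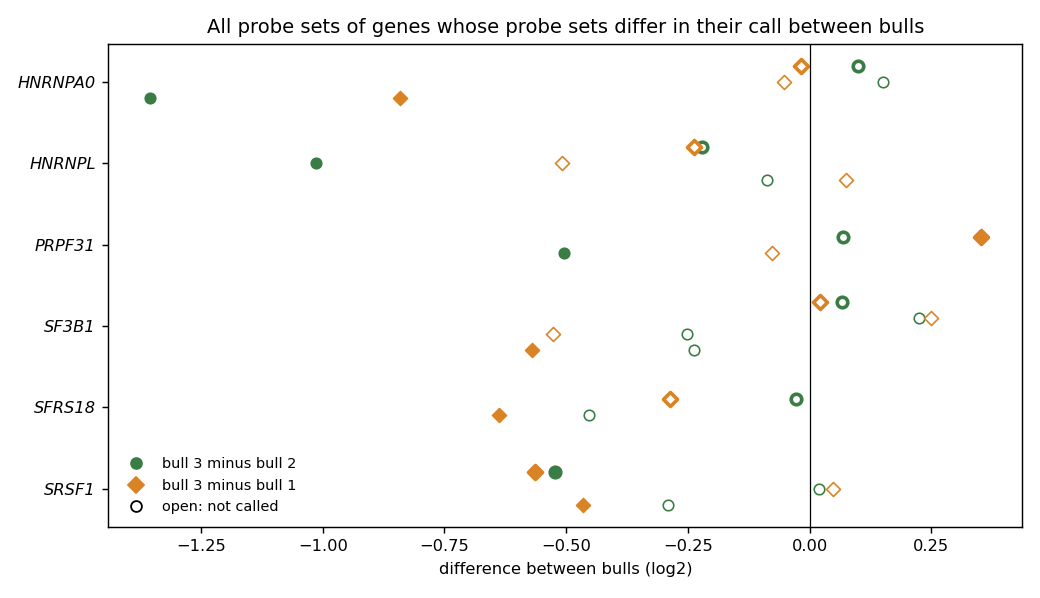
Difference between bulls (log2) on every probe set of the 6 genes whose probe sets fell on different sides of the threshold, with circles for bull 3 minus bull 2, diamonds for bull 3 minus bull 1, filled markers for called differences and thick outlines for the brightest probe set. The dimmest HNRNPA0 probe set lies at -1.36 log2, while the brightest of that gene lies near 0.

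The spread between replicate arrays was small for most members. Their median residual SD within the 6 groups was 0.117 log2, against 0.146 log2 over all genes. For the 108 other splicing genes counted below it was 0.127 log2. These medians were not matched for signal level. Among the members SRSF9, HNRNPUL1, HNRNPK and HNRNPAB had the smallest residual SD, at 0.039, 0.052, 0.053 and 0.058 log2. SRSF9 lay between 12.20 and 12.33 in females, against 12.20 and 12.35 in males. The largest belonged to SF3B6, SRSF1, PRPF39 and CELF3, at 0.56, 0.25, 0.24 and 0.23 log2. HNRNPAB differed by 0.10 log2 between the sexes (limma adjusted p = 0.166), and passed with no moderation of the variance (adjusted p = 0.0234) and also with an intensity trend. Of the 55 members not called for sex, 54 had 95% intervals within 0.5 log2 of 0, the exception being SF3B6.

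Splicing genes outside these families were counted from a list of 137 genes, of which 108 were measured. By sex 17 of them were called (15.7%, against 20.8% of all genes), 9 higher and 8 lower in females. Of the 100 not listed on the X chromosome 11 were called (11%, against 19.1% of autosomal genes), 3 higher and 8 lower in females. The 3 include HTATSF1 and RBMX (0.29 log2), both unplaced in the reference used here. Unplaced genes are among the 100 but not in the autosomal share of 19.1%, so the 2 shares are not of like sets. RBMX is named outside the naming rule given below. Of 8 listed on the X chromosome 6 rose in females (75%, near the 70% of all X-linked genes), among them GEMIN8 of the SMN complex that assembles snRNPs (0.71 log2), the exon regulator RBM10 (0.59 log2) and PQBP1, a polyglutamine-binding spliceosome protein (0.56 log2). HTATSF1, a U2-associated factor that is X-linked in human and unplaced in the reference used here, was at 8.71 ± 0.09 in females, against 7.98 ± 0.16 in males (SD, 9 arrays per sex), a difference of 0.73 log2. Lower in females were the tumour suppressor RBM5 (-0.37 log2), the kinase CLK3 that phosphorylates SR proteins (-0.36 log2), SNRNP40 of the U5 snRNP (-0.29 log2) and the helicase DDX41 (-0.27 log2). The median of the 108 genes was -0.03 log2, against 0.01 log2 for the 70 members and -0.01 log2 for all genes.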

How the data were processed

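According to the labels' protocols, total RNA (50 ng per sample) went through amplification before hybridisation to Affymetrix arrays. The authors deposited log2 values for each probe set. RMA and Partek 6.4 are named, per the submitters' processing notes, with no role stated. Array medians were 5.33 to 5.49, so a shift of all transcripts would not show. Arrays have no read depth, and their number limits the precision. The 112 control probe sets were left out.

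The model had a mean for each of the 6 groups (limma 3.58.1, R 4.3.3, 12 residual degrees of freedom) over all 24016 probe sets, with contrasts for sex, sex within bulls, the interaction and bulls, and steps were tested on simulated data. Names and chromosomes came from the assembly ARS-UCD2.0 by gene number, where all 70 members matched. Genes were named by rule: every member called for sex or between bulls, the 3 of smallest interaction p, the 4 of largest and of smallest spread, X-linked members, SNRPB and SNRPB2, genes with disagreeing probe sets, and 4 other splicing genes per direction; other members are given with their family. Members and lists were chosen with earlier results of these data known. Whether sample numbers pair the pools is not stated in the labels. Deviations of same-numbered female and male arrays correlated at -0.18 to 0.10, which cannot settle it with 3 arrays per group. Alternatives varied the moderation, probe sets, normalization, weights, blocks, covariate and arrays used. Figures were drawn with matplotlib 3.10.9.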

Additional observations from a re-analysis of the deposited data

Results flagged for a closer look

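Of 72 groups of arrays examined for a value far from the others, 7 stood out. The flagged members had been named by rule from these same data, some for a large spread or a bull difference. A chance rate of about 1 in 20 therefore does not apply to them. In each of the 7 groups, the gap to the nearest array was a large share of the whole range, by Dixon's criterion. SF3B6 was at 8.61 in male bull 1 replicate 2, against 10.61 in the next male array, and CELF1 at 6.95 in the same array, against 7.60. SNRPG was lowest in female bull 1 replicate 1, at 9.91 against 10.09. In female bull 1 replicate 3 CELF3 was at 5.32, against 4.95, and SNRPB at 12.12, against 11.94. Among the arrays of bull 3, male replicate 3 was highest for SRSF6 at 9.12, against 8.73, and for PRPF31 at 9.77, against 9.46. Of these arrays, male bull 1 replicate 2, female bull 1 replicate 3 and male bull 3 replicate 3 had a wide spread over all probe sets.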

How the results depend on the processing

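No called difference reversed its direction in any alternative fit. The 15 sex calls became 7 without bull 2, 5 without bull 3 and 9 with bull as the replicate, 13 with the sample number as a replicate block, 10 with bull and sample number as a replicate block, and 9 to 15 without 1 array (lowest without female bull 2 replicate 2). For sex in bull 1, the 1 call became 2 without moderation and with repeated quantile normalization, 4 with the brighter probe sets, an intensity trend or array weights, 3 with the 5′ minus 3′ covariate, 5 with each gene's probe sets averaged, and 1 to 3 without 1 array (3 without male bull 1 replicate 3, male bull 2 replicate 1 or male bull 3 replicate 3, and 2 without male bull 1 replicate 1, male bull 2 replicate 2 or male bull 3 replicate 2). For bull 2, the 3 calls became 1 to 3 without 1 array (1 without any female of bull 2, female bull 3 replicate 1 or 2, or male bull 2 replicate 2 or 3). For bull 3, the 4 calls became 7 without moderation, with the brighter probe sets, a trend or the narrow arrays alone, 11 with array weights, and 2 to 5 without 1 array (lowest without replicate 3 of either sex of bull 3). Between bulls 2 and 1, the 0 calls became 1 without moderation, with a trend, with the narrow arrays or an additive model, 2 with the brighter probe sets or the mean over probe sets, 3 with array weights, and 0 to 2 without 1 array (2 without male bull 1 replicate 3, and 1 without male bull 3 replicate 3). Between bulls 3 and 1, the 3 calls became 0 without moderation or with the 5′ minus 3′ covariate, 1 with the narrow arrays, 6 with array weights, and 0 to 4 without 1 array (0 without female bull 1 replicate 3, female bull 3 replicate 1 or male bull 3 replicate 3). Between bulls 3 and 2, the 2 calls became 6 with the brighter probe sets, 7 with a trend, 9 with array weights, 1 with the narrow arrays, 0 with the 5′ minus 3′ covariate, and 0 to 5 without 1 array (0 without replicate 1 of either sex of bull 2, and 5 without male bull 1 replicate 2). The interaction had 0 calls among the members in every fit. The cause of these changes was not tested. The number of arrays limits the precision, and no detection call was used here to set signal against background.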

Other observations

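Between bulls, other splicing genes than those of the families above also differed, and they are named here after their values were seen. Of 108 measured genes 6 were called between bulls 3 and 1 in limma's test (5.56%, against 3.6% of all genes), and 3 between bulls 3 and 2 (2.78%, against 3.33%). SYNCRIP, also called hnRNP Q, was lower in bull 3 by 0.45 log2 than in bull 1 and by 0.41 log2 than in bull 2. MBNL3, an X-linked muscleblind protein, was lower by 0.95 and 0.68 log2, and RBM25 and BUD31 were lower than in bull 1 by 0.64 and 0.46 log2. GEMIN4 and PSPC1, a paraspeckle protein, were higher in bull 3 than in bull 1 by 0.29 and 0.38 log2. TXNL4B was higher in bull 3 than in bull 2 by 0.30 log2. The 5′ minus 3′ index averaged -0.69 log2 in bull 3, -0.25 in bull 2 and -0.10 in bull 1, and 2 alternatives were added after seeing the data. With that index as a covariate none of these calls remained, and the differences from bull 1 were -0.22 log2 for SYNCRIP, -0.55 for MBNL3, -0.02 for RBM25, -0.10 for BUD31, 0.18 for GEMIN4 and 0.23 for PSPC1. TXNL4B was then at 0.33 log2 against bull 2 (limma adjusted p = 0.111). Without the arrays of wide spread MBNL3 kept both calls, SYNCRIP that against bull 1 (adjusted p = 0.0484) and TXNL4B its own, while the others lost theirs.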
